A study of Mus musculus with 45 samples.

Results

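The comparison set tumours carrying PDGFRA mutants of the extracellular part of the receptor against tumours carrying mutants of its transmembrane or kinase part. Arrays were assigned to the 2 sides by the genotype in the labels, and the comparison was chosen with earlier results of these data known. The extracellular side held 22 arrays, with 5 of Pdgfra C450 ins, 3 of Pdgfra E7 del, 5 of Pdgfra E10 del and 9 of Pdgfra E10 del.v2. The transmembrane or kinase side held 14 arrays, with 9 of Pdgfra V544ins, an insertion in the transmembrane segment, and 5 of Pdgfra D842V, a substitution in the kinase domain. Together these were 36 of the 45 arrays of the series. The other 9 arrays were 8 of EGFRvIII and 1 of Pdgfra WT. All groups shared a p53-null background and the glioblastoma disease model in mouse brain, and the strain was CD-1 nude throughout. Per the series design, retroviral constructs carrying the receptor were made and p53-null primary mouse astrocyte cultures were the chosen cellular background. The labels name no promoter, no mouse age and no clone, and do not give the positions of the deletions or what the suffix v2 stands for. Nothing in them says that replicate arrays came from separate animals or cultures, so the p-values cover only array-to-array spread, which may be technical.

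PDGFRA is a receptor tyrosine kinase. Its extracellular immunoglobulin-like domains bind PDGF dimers and bring receptors together, a single transmembrane helix crosses the membrane, and the intracellular kinase phosphorylates the receptor and its adaptors. In the developing brain it marks oligodendrocyte progenitors, which lose it as they mature into myelin-forming oligodendrocytes, and altered forms of it drive a share of high-grade gliomas. D842V lies in the activation loop of the kinase and is the best known activating substitution of the receptor. The series design asks how mutants of different parts of the receptor act in pediatric gliomagenesis.

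Values are log2 signals, so that a difference of 1 is a 2-fold difference in signal. Each side was taken as the unweighted mean of its genotype means, and differences are extracellular minus transmembrane or kinase. In limma's fit over all 45 arrays, a gene was called where its Benjamini-Hochberg adjusted p was under 0.05. The whole RNA of a tissue was measured, so fewer cells of a type and less RNA per cell cannot be told apart. The mean signal of 15 oligodendrocyte progenitor genes lay between 6.89 and 10.94 in the extracellular arrays and between 8.46 and 10.82 in the transmembrane or kinase arrays, above the table median of 4.79 in each. The mean of 19 neuron genes varied widely, from 5.37 to 11.40 in extracellular arrays and from 4.60 to 10.39 in transmembrane or kinase arrays, with 1 array, V544ins replicate 5, below the table median. The first principal component held 41% of the variance, and 4 arrays scored lowest on it, replicate 2 of E10 del.v2 and the first 3 replicates of E10 del.

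Between the regions, 55 of 11809 genes were called, which is 0.466% of the genes tested. Of these, 17 were higher (0.144%) and 38 lower (0.322%) in extracellular tumours. That balance depended on the arrays used, with 39 higher and 13 lower within titles 1 to 30, and 126 higher and 72 lower without the 4 arrays lowest on the first component. The folds of the 55 ran from 1.21 to 5.14, and 29 of the 55 differed at least 2-fold. At an unadjusted p under 0.05 there were 1306 genes, or 11.1%. In 0 of the 11809 genes (0%) were the arrays of the 2 regions free of overlap. The means of the genotypes did separate in 41 of the 55 called genes, against 1232 of all genes kept (10.4%). Extracellular means lay below both others in 34 of the 38 lower genes (5.54% of all genes) and above both in 7 of the 17 higher ones (4.89%). The call used the same means, so that count describes the called genes and is no test of them.

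The 5 named lower genes of largest difference were Ucn3, Klk6, Cbln2, Trpc4 and Insc, and several genes of mature oligodendrocytes followed. Klk6, a secreted serine protease made by oligodendrocytes, had 6.82, 5.78, 5.88, 6.17 and 6.61 in C450 ins, and 7.54, 3.66 and 4.84 in E7 del. In E10 del its arrays had 4.45, 3.76, 6.26, 7.09 and 6.26, and in E10 del.v2 they ran from 3.68 over a median of 5.08 to 7.46. In V544ins Klk6 ran from 5.68 over a median of 7.76 to 10.78, and in D842V it had 7.98, 6.84, 8.24, 8.25 and 8.55. All 4 extracellular means lay between 5.35 and 6.25, below the V544ins mean of 7.81 ± 1.77 (SD, n = 9) and the D842V mean of 7.97 ± 0.66 (SD, n = 5), although single arrays overlapped. The difference was -2.26 ± 0.48 (SE), with an adjusted p of 0.0205 (limma). Against V544ins it was -2.18, or -1.39 without V544ins replicates 4 and 5, and against D842V it was -2.34. D842V and V544ins differed by 0.16 ± 0.74 with all arrays (SE, adjusted p of 0.991 in limma). Without V544ins replicates 4 and 5 they differed by 0.95 ± 0.67 (SE, adjusted p of 0.590 in limma), so the small gap rested on those arrays. The 8 EGFRvIII tumours, outside the comparison, ran from 5.86 to 9.78 for Klk6 with a mean of 6.92.

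Mag, the myelin-associated glycoprotein of the inner myelin membrane, had 8.17, 8.46, 8.98, 9.15 and 9.34 in C450 ins, and 8.38, 4.73 and 8.16 in E7 del. It had 6.51, 6.56, 8.50, 8.98 and 9.11 in E10 del, and in E10 del.v2 it ran from 6.84 over a median of 7.82 to 9.38. In V544ins Mag ran from 8.15 over a median of 9.16 to 10.48, and in D842V it had 9.49, 9.35, 9.71, 9.89 and 10.19. The D842V arrays varied little and lay high, with 4 of the 5 above every extracellular array, while the V544ins and extracellular ranges overlapped. The difference was -1.55 ± 0.36 (SE), with an adjusted p of 0.0318 (limma). Mog, the outermost protein of the myelin sheath, was lower by a similar amount, at -1.58 ± 0.38 (SE) and an adjusted p of 0.0394.

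The stretches of the genome just upstream of Klk6 and Mag are shown because Klk6 had the largest difference among the oligodendrocyte genes named and Mag is a called gene of the myelin sheath. SOX10 and related HMG-box factors drive the oligodendrocyte programme and bind a short core, and the capitals mark each ACAAAG or ACAATG on either strand. Each line gives the 250 bases before 1 annotated start of the gene from RefSeq on GRCm38.p6, 5′ to 3′ on the strand of the gene, at chr7:43824294-43824543 (plus strand) for Klk6 and chr7:30914923-30915172 (minus strand) for Mag.
Klk6: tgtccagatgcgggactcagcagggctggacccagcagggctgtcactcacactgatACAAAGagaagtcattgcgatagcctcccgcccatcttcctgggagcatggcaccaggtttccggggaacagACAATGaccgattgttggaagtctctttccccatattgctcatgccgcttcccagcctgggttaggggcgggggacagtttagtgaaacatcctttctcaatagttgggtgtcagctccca
Mag: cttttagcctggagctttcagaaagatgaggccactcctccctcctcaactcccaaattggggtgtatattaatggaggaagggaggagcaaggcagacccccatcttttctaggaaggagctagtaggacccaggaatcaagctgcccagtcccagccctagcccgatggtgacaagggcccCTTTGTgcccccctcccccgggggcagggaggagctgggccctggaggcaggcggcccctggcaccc
A window with a match was chosen for each gene, and 1 of the 2 annotated Klk6 windows and 2 of the 3 Mag windows hold one. The Klk6 window holds 2 matches, which begin at bases -193 and -121 counted back from the start, and the Mag window holds 1, at base -67. The core is short and common, since 25.2% of 32851 such windows hold it. Of the 17 myelin genes measured, 14 had a window and 8 of these had a match in at least 1 window, against 28.2% of all genes with a window. A match of letters is a description and not a binding site.

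**Figure D1:**
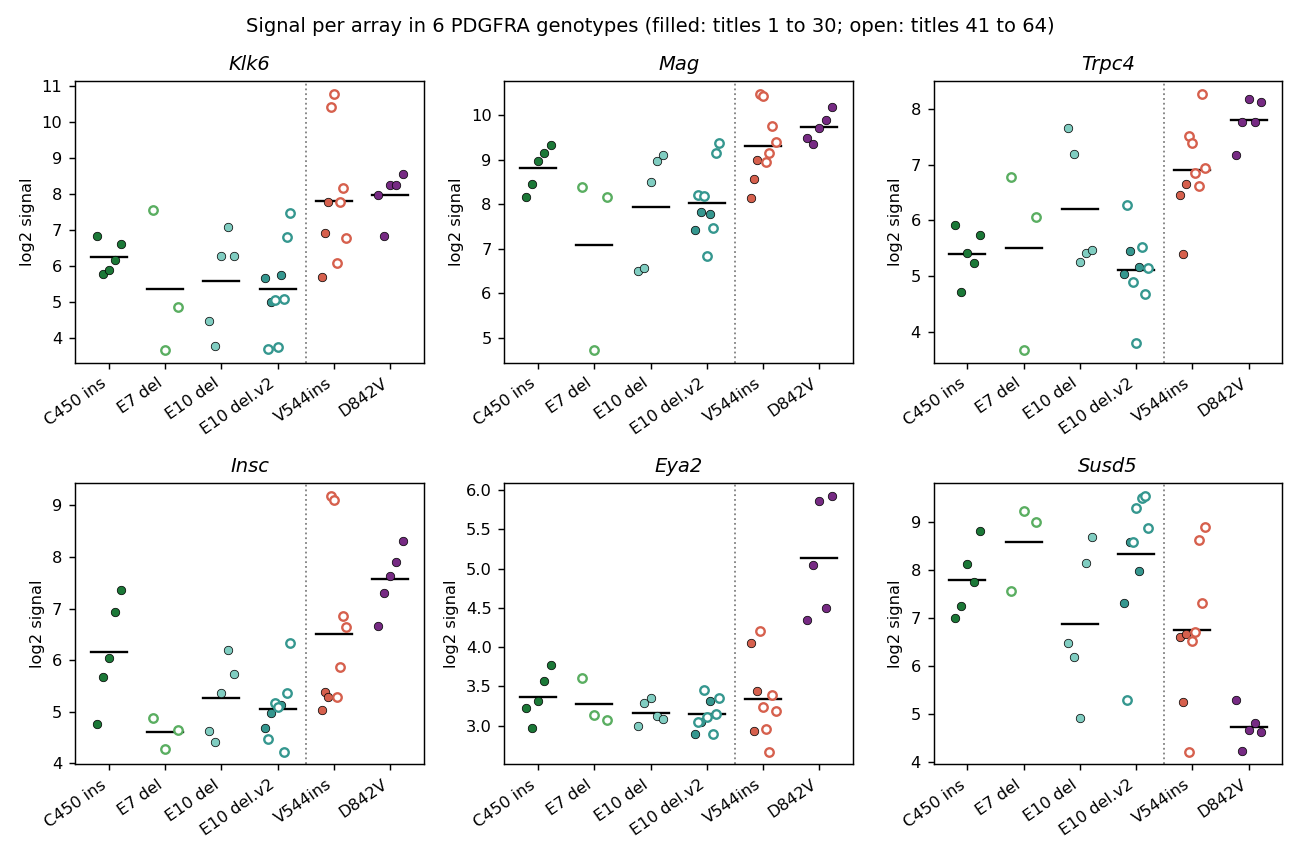
Log2 signal of 6 genes in each of the 36 arrays, by genotype, with extracellular mutants left of the dotted line and V544ins and D842V right of it. Horizontal lines are genotype means, filled points are arrays with title numbers 1 to 30, and open points are arrays with title numbers 41 to 64. Klk6, Mag, Trpc4 and Insc lie lower on the left, Eya2 stands apart in the 5 D842V arrays between 4.34 and 5.93, and Susd5 lies highest on the left and between 4.23 and 5.30 in D842V.

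Genes of mature oligodendrocytes lay lower as a group in extracellular tumours. All 17 of the 17 myelinating oligodendrocyte genes measured had a negative difference, 4 were called lower, none was called higher, and 12 were lower at an unadjusted p under 0.05. Of all genes, 0.322% were called lower and 5.92% were lower at an unadjusted p under 0.05. The median difference of the list was -1.02, while that of all genes kept was -0.0023. The 4 called members were Mog, Mag, Ppp1r14a, an inhibitor of myosin phosphatase, and Trf, transferrin, the iron carrier that oligodendrocytes make in brain. Ppp1r14a differed by -1.44 ± 0.32 (SE, adjusted p of 0.0301).

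Trf had 10.42, 10.59, 10.60, 10.26 and 10.30 in C450 ins, and 10.71, 8.10 and 9.28 in E7 del. It had 9.54, 9.02, 9.94, 11.06 and 10.24 in E10 del, and ran from 9.34 over 9.86 to 10.59 in E10 del.v2. In V544ins Trf ran from 9.35 over 10.37 to 12.05, and in D842V it had 11.21, 11.22, 11.55, 11.58 and 11.80. Every D842V array lay above all 22 extracellular arrays, while V544ins covered most of the extracellular range. The difference was -1.13, with an adjusted p of 0.0205 (limma).

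As a mean over its 17 members, the Myelinating oligodendrocytes list stood at 8.35 ± 0.35 in C450 ins (SD, n = 5), 6.89 ± 1.08 in E7 del (n = 3), 8.08 ± 0.87 in E10 del (n = 5) and 8.31 ± 0.51 in E10 del.v2 (n = 9). It stood at 8.82 ± 0.64 in V544ins (n = 9) and 9.03 ± 0.25 in D842V (n = 5). The V544ins group was uneven: replicates 4 and 5 had 9.86 and 9.79, the highest of all 36 arrays, and the other 7 lay between 8.14 and 9.05. E7 del replicate 2 had the lowest value, 5.71. The neuron list moved the other way in the same V544ins arrays, with means of 5.36 and 4.60 in replicates 4 and 5, and the other 7 V544ins arrays between 7.33 and 10.39. The part of neuron content in the myelin difference was not tested. The list median was -0.86 without V544ins replicates 4 and 5, -0.58 with E7 del left out, -0.60 within titles 1 to 30, -1.14 within titles 41 to 64 and -1.02 with the neuron list as a covariate. With E7 del left out, Mog, Mag and Ppp1r14a were no longer called, at -1.01, -1.26 and -0.95, while Klk6 still was, at -2.17 with an adjusted p of 0.0424 (limma).

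Genes of the earlier stage gave no call, and their median moved with the arrays used. Of 15 oligodendrocyte progenitor genes measured, none was called and 7 lay above and 8 below 0, with a median of -0.00072. That median was 0.55 without the 4 arrays lowest on the first component, 0.42 within titles 1 to 30, -0.12 within titles 41 to 64 and 0.30 with E10 del left out. Matn4, an extracellular matrix protein, had the smallest p of them, with a difference of 1.20 and an adjusted p of 0.492. None of 13 astrocyte genes, 10 neural stem cell and radial glia genes, 19 neuron genes, 17 microglia and macrophage genes, 11 endothelial genes or 9 pericyte and fibroblast genes was called. Their medians were 0.03, -0.09, 0.03, -0.15, 0.24 and 0.03, in that order. For the endothelial list all 11 members lay above 0, against 5841 of all 11809 genes kept. The nearest of them to a call by its p was Vwf, the von Willebrand factor of vessel walls, at 0.60 with an adjusted p of 0.439. The single lymphocyte gene that passed the filter was Cd4, at 0.05.

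**Figure D2:**
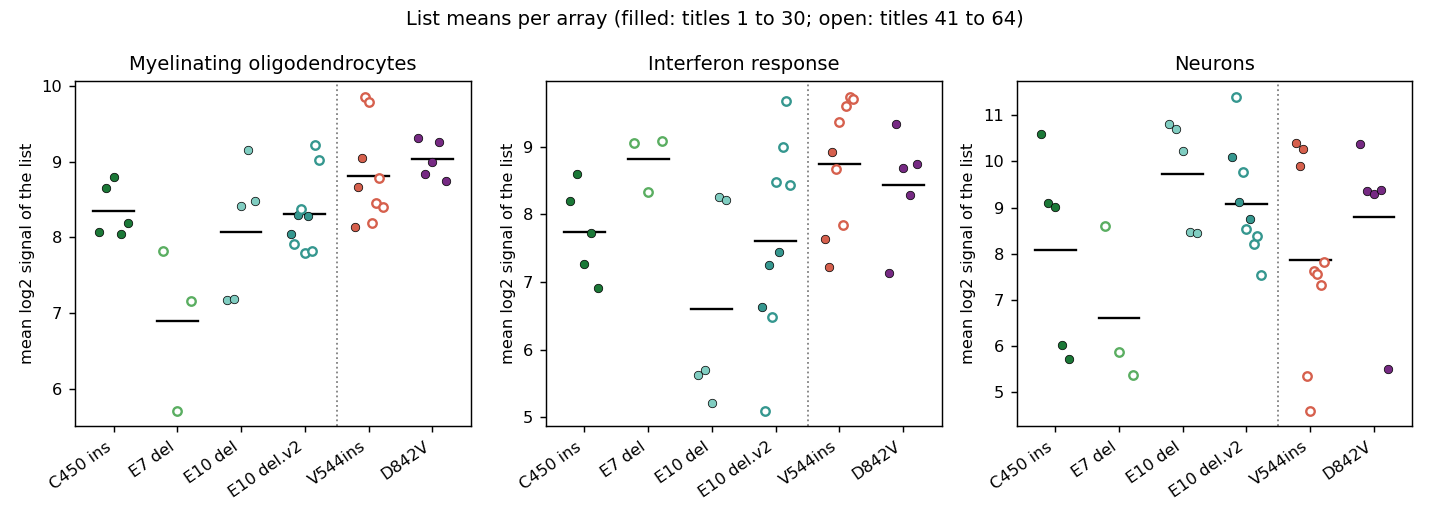
Mean log2 signal of 3 gene lists in each of the 36 arrays, by genotype, extracellular mutants left of the dotted line. Lines are genotype means, filled points have title numbers 1 to 30 and open points 41 to 64. Myelinating oligodendrocyte means are 6.89 to 8.35 in the 4 extracellular genotypes against 8.82 and 9.03 in V544ins and D842V, whereas the neuron means of the genotypes on both sides overlap.

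Other genes led the lower side too. Trpc4, a calcium-permeable cation channel, had 5.91, 4.72, 5.41, 5.23 and 5.73 in C450 ins, 6.79, 3.67 and 6.06 in E7 del, and 7.67, 7.19, 5.26, 5.42 and 5.47 in E10 del. In E10 del.v2 Trpc4 ran from 3.80 over 5.14 to 6.28. It ran from 5.39 over 6.86 to 8.28 in V544ins and had 7.17, 7.77, 8.18, 7.78 and 8.13 in D842V. E10 del replicates 1 and 2 and E7 del replicate 1 were high for their side, the other extracellular arrays of Trpc4 lay at 6.28 or below, and every D842V array lay at 7.17 or above. The difference was -1.80 ± 0.30 (SE, adjusted p of 0.00314), and a second probe set of the gene gave -1.49.

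Insc, an adaptor that links cell polarity to the orientation of the mitotic spindle, had 4.77, 5.68, 6.04, 6.94 and 7.36 in C450 ins, 4.89, 4.28 and 4.65 in E7 del, and 4.63, 4.41, 5.36, 6.19 and 5.74 in E10 del. In E10 del.v2 Insc ran from 4.23 over 5.09 to 6.34. It ran from 5.03 over 5.86 to 9.19 in V544ins and had 6.67, 7.30, 7.64, 7.90 and 8.31 in D842V. The V544ins values were high in replicates 4 and 5, at 9.19 and 9.10, and lay between 5.03 and 6.86 in the other 7. The difference was -1.77 ± 0.34 (SE, adjusted p of 0.0136), and -1.39 with an adjusted p of 0.012 without those 2 arrays.

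Ucn3, which encodes the peptide urocortin 3, was called at -2.36 ± 0.41 (SE, adjusted p of 0.00391), but all of its extracellular arrays lay below the table median of 4.79, where signal says little of level. It lay between 2.14 and 4.71 in the 22 extracellular arrays. In V544ins it ran from 2.37 over 3.18 to 8.77, with 6.68 and 8.77 in replicates 4 and 5 and no other array above 3.86, and in D842V it had 5.89, 5.97, 7.13, 5.70 and 8.70. The gene passed the filter through 7 arrays, those 2 V544ins arrays and the 5 of D842V. A second Ucn3 probe set stayed below the table median in every array, with a mean of 2.75, and showed a difference of 0.03, so the 2 probe sets disagree. Without V544ins replicates 4 and 5 the Ucn3 difference against V544ins was -0.08. In 5 of the 38 lower genes, Ucn3, Eya2, H4c8, Npb and Gm26519, no extracellular array passed the table median, so that they were tested only because of arrays on the side where they are high. Npb and Gm26519 are named here after their values were seen.

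Cbln2, a secreted organiser of synapses, differed by -2.13 ± 0.39 (SE, adjusted p of 0.0069). Its extracellular arrays ran from 3.02 over 4.49 to 7.44, its V544ins arrays from 3.89 over 5.74 to 7.03, and its D842V arrays were 7.36, 6.80, 8.21, 7.13 and 7.99. D842V was the high group here, and the V544ins arrays lay within the extracellular range. The remaining named lower genes were Ppfibp2, a liprin of cell junctions (-1.47), the transmembrane protein gene Tmem125 (-1.39), Mob3b, a relative of kinase activators of the Hippo pathway (-1.26), and the histone H4 gene H4c8 (-1.19). In each of these 4 the V544ins replicates 4 and 5 were the highest of the V544ins arrays, for H4c8 at 6.11 and 6.25 against 3.60 to 5.74 in the other 7. Histone H4 genes are near-identical copies, so that other H4 transcripts may contribute to that signal. All 12 named lower genes had every extracellular mean below both other means.

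The higher side was led by Susd5, a sushi-domain membrane protein, and Rlbp1, a retinaldehyde-binding protein of retinal and glial cells. Susd5 had 7.01, 7.25, 8.13, 7.76 and 8.83 in C450 ins, 7.56, 9.23 and 9 in E7 del, and 6.48, 6.20, 4.91, 8.15 and 8.70 in E10 del. In E10 del.v2 Susd5 ran from 5.30 over 8.60 to 9.56. It ran from 4.22 over 6.68 to 8.91 in V544ins and had 5.30, 4.23, 4.67, 4.82 and 4.63 in D842V. The D842V arrays were low together, whereas V544ins spread over nearly the whole extracellular range. The difference was 2.16 ± 0.49 (SE, adjusted p of 0.0317), with 2.08 from a second probe set.

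Rlbp1 had 7.57, 6.61, 7.32, 5.42 and 6.76 in C450 ins, 8.50, 9.28 and 9.40 in E7 del, and 6.89, 6.38, 4.10, 6.91 and 7.36 in E10 del. In E10 del.v2 Rlbp1 ran from 5.31 over 8.16 to 8.87. It ran from 4.48 over 6.53 to 9.22 in V544ins and had 4.33, 4.41, 4.52, 4.69 and 3.35 in D842V. The V544ins mean of 6.63 lay between the E10 del mean of 6.33 and the C450 ins mean of 6.74, so the genotype means did not separate by region, and D842V alone was low. The difference was 2.09 ± 0.48 (SE, adjusted p of 0.0321).

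Meox1, a homeobox factor of mesoderm, was also low in all 5 D842V arrays, between 4.58 and 5.04. Its extracellular arrays ran from 4.84 over 7.92 to 9.59 and its V544ins arrays from 4.83 over 6.07 to 8.14, and the difference was 1.89 ± 0.42 (SE, adjusted p of 0.0301). Lmcd1, a LIM-domain repressor of GATA factors, differed by 1.52 ± 0.32 (SE, adjusted p of 0.0205), with D842V between 4.68 and 5.67. The other named higher genes were the neural adhesion molecule Cntn6 (1.38), the RNA helicase Ddx43 (1.28), the methionine sulfoxide reductase Msrb3 (1.20), the phospholipid transporter Abcb4 (0.96), the glypican Gpc6 (0.76), the kelch-family gene Klhl23 (0.70), the transmembrane protein gene Tmem42 (0.54) and the cholesterol exporter Abcg1 (0.52). Of the 12 named higher genes, 6 had all extracellular means above both other means, namely Susd5, Cntn6, Gpc6, Klhl23, Tmem42 and Abcg1. The 5 E10 del arrays had the lowest extracellular mean in Susd5, Rlbp1, Meox1 and Lmcd1, and 3 of those 5 arrays were among the 4 lowest on the first principal component.

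The 2 mutants on the transmembrane or kinase side did not contribute alike. Against V544ins alone, 0 of 11809 genes were called by limma (0%), with 678 at an unadjusted p under 0.05 (5.74%). Against D842V alone, 82 genes were called (0.694%), 37 higher (0.313%) and 45 lower (0.381%) in extracellular tumours. Both comparisons share the extracellular arrays, and V544ins had 9 arrays against 5 of D842V. Among the 55 genes called between regions, D842V had the highest or lowest mean of the 6 genotypes in 52, against 32% of all genes kept. V544ins had it in the other 3, against 13.3% of all genes kept, and these were Arl2, Gstm7 and Septin4, named here after their values were seen. The median size of the difference was 0.62 against V544ins and 1.52 against D842V. With all arrays used, the V544ins difference was at least 0.5 times the D842V one in 26 of the 55, against 37.9% of all genes kept. Without V544ins replicates 4 and 5 this held in 12 of the 55, and no share over all genes was computed for that setting. Of the 26, 21 were among the 38 lower genes and 5 among the 17 higher ones. The 55 were called on these same contrasts, so those counts describe them and test nothing.

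**Figure D3:**
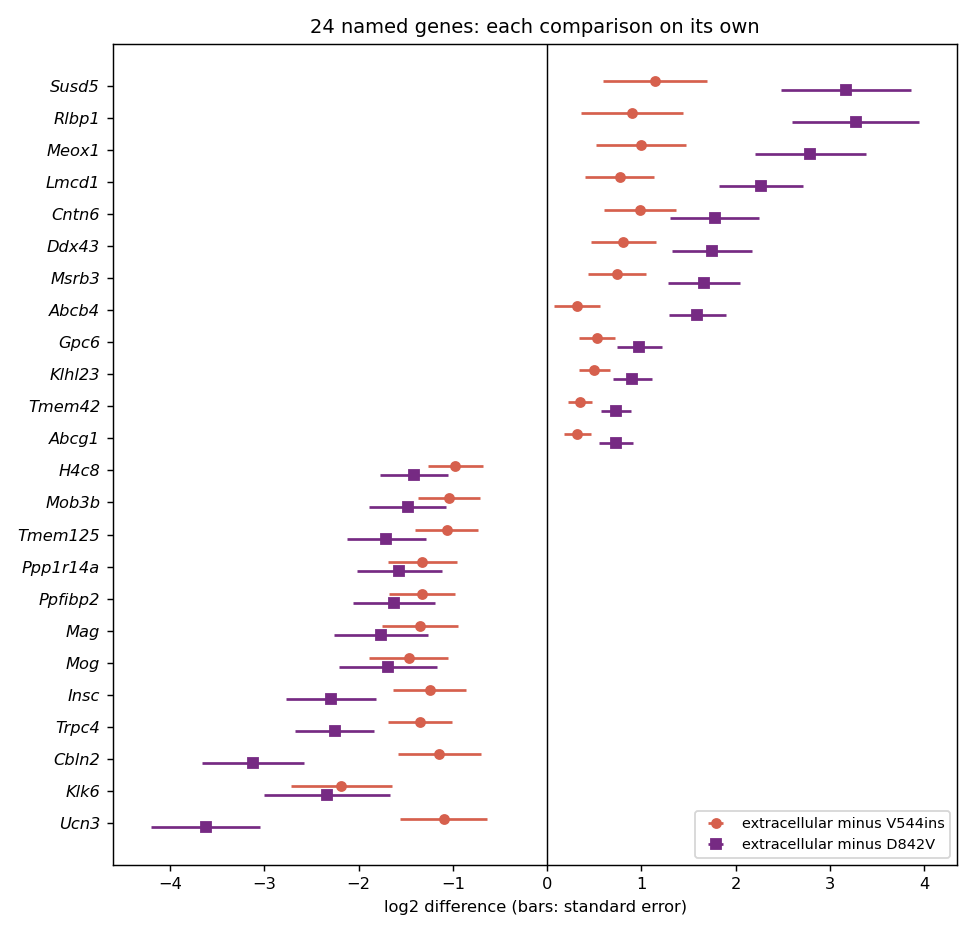
Log2 difference of the 24 named genes, extracellular minus V544ins (circles) and extracellular minus D842V (squares), with bars of 1 standard error from limma. With all arrays used, the 2 differences are -2.18 and -2.34 for Klk6, -1.47 and -1.69 for Mog and -1.35 and -1.76 for Mag, and lie farther apart for Susd5 (1.14 and 3.17) and Ucn3 (-1.10 and -3.62).

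Several genes lay lower in extracellular tumours than in either of the 2 other mutants. Mog differed by -1.47 ± 0.42 from V544ins and by -1.69 ± 0.52 from D842V (SE), Ppp1r14a by -1.32 and -1.57, and Ppfibp2 by -1.33 and -1.62. None of these single comparisons passed the threshold, with adjusted p between 0.0629 and 0.102 against D842V. The V544ins values leaned on replicates 4 and 5. Without these, Mog was at -0.92, Mag at -1.02, Ppp1r14a at -0.97 and Ppfibp2 at -0.69 against V544ins, each with an adjusted p of 0.9989 (limma). None of the 4 was called between D842V and V544ins either, with adjusted p from 0.276 to 0.668 (limma). A missing call there does not show that the 2 mutants are alike. Trf lay nearer to a D842V pattern, at -0.72 against V544ins, or -0.37 without those arrays, and at -1.54 against D842V (adjusted p of 0.0163), and it was the only myelin gene called in either single comparison. The median of the Myelinating oligodendrocytes list was -0.85 against V544ins, or -0.66 without V544ins replicates 4 and 5, and -1.08 against D842V.

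Eya2 and Sox21 differed between D842V and V544ins. Eya2, a transcriptional coactivator and phosphatase of the eyes absent family, was called between regions at -1.0 ± 0.14 (SE) with an adjusted p of 0.000209 (limma). It passed the filter through 3 D842V arrays alone, and all its extracellular and V544ins arrays lay below the table median of 4.79, so that the size of its difference is uncertain. It had 3.22, 2.97, 3.31, 3.57 and 3.77 in C450 ins, 3.61, 3.13 and 3.07 in E7 del, 2.99, 3.29, 3.35, 3.12 and 3.08 in E10 del, and ran from 2.90 over 3.11 to 3.46 in E10 del.v2. In V544ins Eya2 ran from 2.67 over 3.24 to 4.21, and in D842V it had 4.34, 5.05, 5.86, 4.50 and 5.93. The 5 D842V arrays lay above all 31 other arrays of the comparison, and the V544ins mean of 3.35 lay within the extracellular means of 3.14 to 3.37. Against V544ins the difference was -0.11 ± 0.16 (SE, adjusted p of 0.9895), and D842V exceeded V544ins by 1.79 ± 0.22 (SE, adjusted p of 6.7e-06).

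Sox21, an HMG-box repressor of neural progenitors, behaved likewise. It had 6.54, 7.55, 7.26, 7.49 and 7.49 in D842V and 4.51 over 5.24 to 6.53 in V544ins, and the 22 extracellular arrays ran from 4.11 over 5.53 to 6.27. All D842V arrays lay above all the others. D842V exceeded V544ins by 1.98 ± 0.32 (SE, adjusted p of 0.00107), and the region difference was -0.91 with an adjusted p of 0.0317. Against V544ins the extracellular difference of Sox21 was 0.08, or 0.26 without V544ins replicates 4 and 5. Its sign thus turned when D842V was left out.

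Between D842V and V544ins, 10 genes were called (0.0847%), 7 higher (0.0593%) and 3 lower (0.0254%) in D842V, with 868 at an unadjusted p under 0.05 (7.35%), and Eya2 and Sox21 were the only 2 of them that were also among the 55 of the region comparison. The named others were Ttr, Egr2 and Pyy on the higher side and Kcna5, Trim11 and Setd6 on the lower side. Ttr, the thyroid hormone carrier made by choroid plexus, averaged 12.44 in D842V and 6.06 in V544ins, a difference of 6.38 ± 1.19 (SE, adjusted p of 0.00774). Single Ttr arrays on the extracellular side also reached 13.28 in C450 ins, 13.42 in E10 del and 12.82 in E10 del.v2. The Ependyma and choroid plexus list of 12 genes stood at 4.64 to 6.46 in the 5 D842V arrays and at 3.19 to 5.05 in the 9 V544ins arrays, and at 3.72 to 7.36 in the extracellular arrays. The part of that tissue in the D842V differences was not tested. Pmch, the precursor of melanin-concentrating hormone and a product of the hypothalamus, was called lower in extracellular tumours against D842V, at -4.74 with an adjusted p of 0.0326, and ran from 2.49 to 11.76 over the extracellular arrays. Of 14 hypothalamus and pituitary genes measured, Ucn3 was the only one called between regions, and the median of the list was 0.05.

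Egr2, a zinc-finger factor of the immediate early class, had 7.36, 7.83, 8.09, 9.34 and 8.09 in D842V. In V544ins it ran from 4.54 over 5.50 to 7.14. The extracellular arrays of Egr2 ran from 4.59 over 6.08 to 8.64. Each D842V array lay above all V544ins arrays and above all extracellular ones but E10 del.v2 replicate 1, which had 8.64 and lay above 4 of the 5. D842V exceeded V544ins by 2.62 ± 0.46 (SE, adjusted p of 0.00364) and extracellular tumours differed from D842V by -2.19 (adjusted p of 0.00513). Between the regions Egr2 was not called, at -0.88 with an adjusted p of 0.192.
Immediate early genes are classically switched on through serum response factor, which binds the CArG box, and the window before an Egr2 start is shown because it holds one, in capitals. It is the 250 bases at chr10:67537316-67537565 of GRCm38.p6, plus strand, from RefSeq.
Egr2: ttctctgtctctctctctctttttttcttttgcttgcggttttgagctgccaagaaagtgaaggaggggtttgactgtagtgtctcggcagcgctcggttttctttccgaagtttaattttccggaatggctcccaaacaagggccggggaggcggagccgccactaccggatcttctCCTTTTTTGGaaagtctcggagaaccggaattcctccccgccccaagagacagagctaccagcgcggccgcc
The match begins at base -72 from that start, and 4 of the 5 annotated windows of the gene hold a match. CArG boxes were found on either strand in 1.47% of 32851 windows. Of 15 immediate early genes with a window, Egr2 was the only one with a match in these 250 bases, against 1.62% of all genes with a window, and nothing about the factor follows from windows without one.

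As a group, 16 of the 18 immediate early genes measured had a negative region difference, against 5968 of all 11809 genes kept. None of the 18 was called, and their median was -0.40. The median was 0.10 against V544ins and -1.0 against D842V. As list means, the Immediate early genes stood at 6.84 ± 0.42 in C450 ins, 7.06 ± 0.92 in E7 del, 6.83 ± 0.34 in E10 del and 7 ± 0.61 in E10 del.v2, at 6.83 ± 0.57 in V544ins and at 7.84 ± 1 in D842V (SD). D842V replicate 4 had 9.53 and raised that mean. The other 4 D842V arrays lay between 7.15 and 7.93, above the means of the other genotypes. Single arrays elsewhere reached 8.56 in E10 del.v2, 8.11 in E7 del and 8.02 in V544ins. Fos, a partner in the AP-1 factor, had a difference of -0.79 (adjusted p of 0.192) and Fosb one of -0.93 (adjusted p of 0.436).

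Receptor signalling genes showed no called member between regions. Pdgfra itself ran from 4 to 9.06 in extracellular arrays and from 4.91 to 7.74 in the others. By genotype its mean was 7.36 in C450 ins, 8.41 in E7 del, 5.39 in E10 del and 7.06 in E10 del.v2, against 6.38 in V544ins and 6.15 in D842V. The spread within the extracellular side, with the 3 lowest E10 del arrays at 4.38, 4.41 and 4, exceeded the difference between sides of 0.79 ± 0.42 (SE, adjusted p of 0.511). The array's single Pdgfra probe set cannot separate an introduced receptor from that of the tissue. Pdgfrl, a PDGF receptor-like protein, had the smallest p of the PDGF list, at 1.01 ± 0.32 (SE, adjusted p of 0.147). The ligand genes Pdgfb, Pdgfc and Pdgfd had 0.22, -0.17 and 0.01, Pdgfrb, the second PDGF receptor, 0.17, and Egfr, the receptor altered in the EGFRvIII tumours, 0.14, with adjusted p from 0.7785 to 0.997.

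None of 21 adaptors and effectors of PDGF receptors was called, and the median was -0.0058. Plcg1, a phospholipase that docks on the activated receptor, had the smallest p, at 0.43 with an adjusted p of 0.0975. None of 19 genes of MAPK feedback and output was called, with a median of 0.04. Etv4, an ETS factor induced by MAPK signalling, had 1.02 (adjusted p of 0.233), and Spry1, a feedback inhibitor of receptor kinases, 0.83 (adjusted p of 0.263). The 13 FOXO target genes, the 11 STAT target genes and the 8 SRF and YAP target genes likewise held no called gene, with medians of 0.05, -0.18 and 0.0099 in that order.

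Interferon response genes differed in one direction without a call. All 14 of 14 measured members were negative, against 5968 of all 11809 genes kept. Of the 14, 6 had an unadjusted p under 0.05, and 5.92% of all genes were lower at that threshold. The median of the list was -0.96. Gbp2, an interferon-induced GTPase, came nearest, at -1.86 with an adjusted p of 0.0524, followed by Ifit2 at -0.91 with an adjusted p of 0.129. As a list mean, the Interferon response genes stood at 7.74 ± 0.68 in C450 ins, 8.82 ± 0.43 in E7 del, 6.6 ± 1.5 in E10 del and 7.61 ± 1.43 in E10 del.v2, against 8.74 ± 0.96 in V544ins and 8.44 ± 0.81 in D842V (SD). E7 del thus had the highest mean of all 6 genotypes, and E10 del fell into 3 arrays between 5.21 and 5.70 and 2 at 8.26 and 8.21. The 3 low arrays were those lowest on the first principal component, and without those and E10 del.v2 replicate 2 the median was -0.36. Other lists moved in the same arrays. In E10 del replicates 1, 2 and 3 the neuron means were 10.80, 10.70 and 10.23, against 8.47 and 8.44 in replicates 4 and 5, and the oligodendrocyte progenitor means were 7.73, 7.66 and 7.15, against 10.31 and 10.48. The 3' minus 5' log2 signal of Actb control probe sets, a sign of RNA quality, was 0.70, 0.93 and 0.91 in these 3 and 0.56 and 0.60 in the other 2. It was 1.19 in E10 del.v2 replicate 2, the highest among the 36 arrays. The part of tissue content and RNA quality in the interferon difference was not tested.

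The remaining lists had no called gene. Cell cycle genes lay below 0 in 20 of 21 members, with a median of -0.29 that turned positive with E10 del left out of the contrast. Of all 11809 genes kept, 5968 lay below 0 and 5841 above. The median was -0.33 for 18 mesenchymal glioma markers, where 14 were negative and Tgfbi, a matrix protein induced by TGF-beta, had -1.30 (adjusted p of 0.286), and -0.02 for 14 proneural markers. It was 0.11 for 12 Notch pathway genes, of which 11 were positive with Hey2, a Notch target, at 1.07 (adjusted p of 0.314). Hypoxia response (0.05), unfolded protein response (-0.13), cholesterol and fatty acid synthesis (-0.11), NF-kB and inflammatory genes (0.17) and collagen and extracellular matrix genes (0.11) had medians closer to that of all genes. In 4 lists few genes were on the array and kept: 5 granulocyte genes had a median of -0.30, 3 erythroid genes one of -0.73, 2 Hox genes one of 0.72, and 4 sex-linked genes one of 0.06. The sex-linked median pooled Xist (-0.25) with Eif2s3y (0.02), Uty (0.47) and Kdm5d (0.09). Eif2s3y ran from 2.45 to 9.03 in extracellular arrays and from 3.12 to 9.03 in the others. The part of sex in the differences was not tested.

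**Figure D4:**
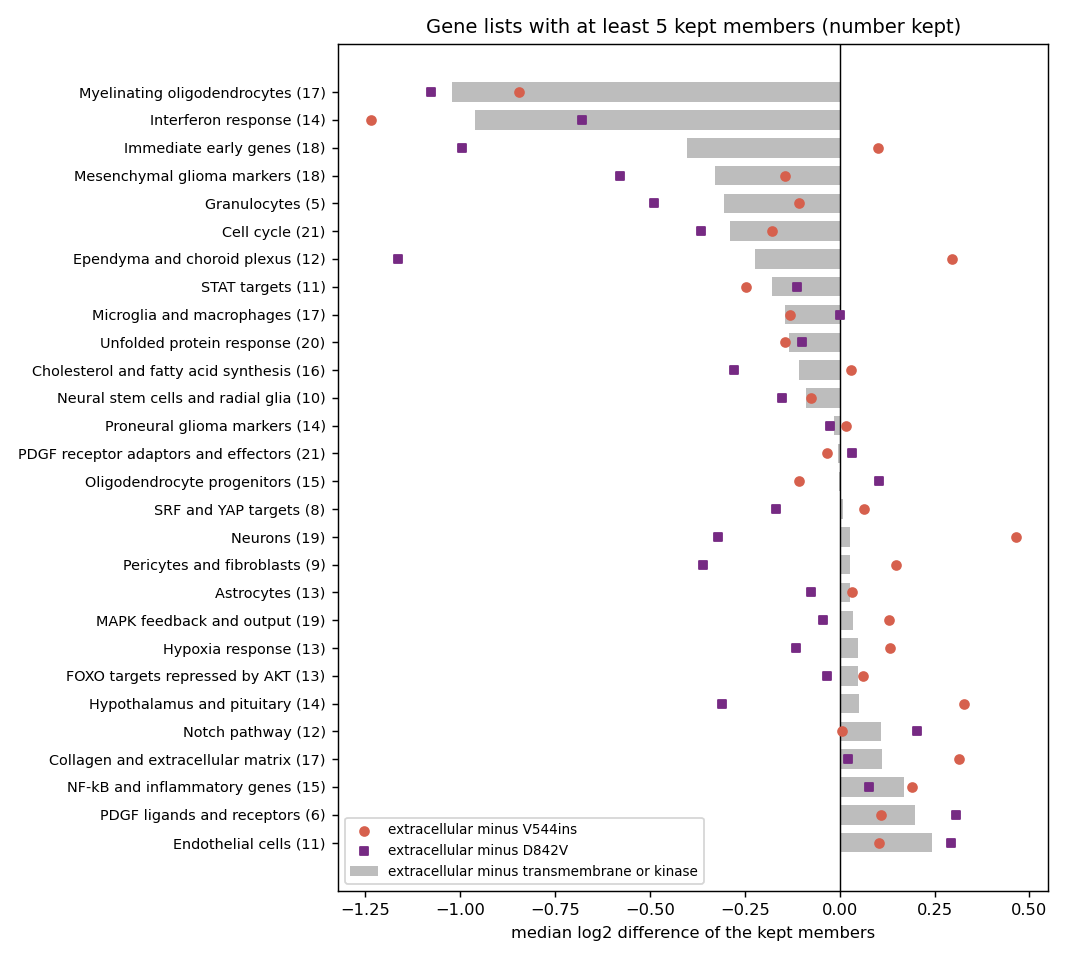
Median log2 difference of the kept members of each gene list with at least 5 of them (number in brackets), as grey bars for extracellular minus transmembrane or kinase, circles for extracellular minus V544ins and squares for extracellular minus D842V. Myelinating oligodendrocytes (-1.02) and interferon response (-0.96) have the longest bars with both symbols on the same side, and immediate early genes and ependyma and choroid plexus lie on opposite sides of 0 for V544ins (0.10 and 0.29) and D842V (-1.0 and -1.16).

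Differences also existed within the extracellular side. limma's moderated F test among its 4 genotypes called 10 genes (0.0847%), none of them among the 55. At an unadjusted p under 0.05 the F test had 2130 genes (18%), while the region comparison had 1306 (11.1%). The small number of calls does not show that the 4 genotypes are alike. The smallest p belonged to Foxf1, a forkhead factor of mesenchyme, and Fendrr, the long noncoding RNA transcribed beside it. Foxf1 averaged 6.78 in E7 del, against 3.66 in C450 ins, 3.94 in E10 del and 4.39 in E10 del.v2 (adjusted p of 0.000138). Fendrr averaged 5.77 in E7 del and between 3.33 and 3.57 in the other 3. For both genes the means of these other 3 genotypes lay below the table median, where signal says little of level. Their highest Fendrr array was at 4, in E10 del.v2, so on the extracellular side only E7 del arrays passed that median. For Foxf1 the E10 del.v2 arrays reached 5.17. The sizes of both differences are therefore uncertain. Outside the extracellular side, the V544ins arrays of Foxf1 ran from 3.30 over 4.07 to 6.27. E7 del also had the lowest mean of Tm7sf2, a sterol reductase, at 5.10 against 6.53 to 7.08 (adjusted p of 0.00588). E7 del has 3 arrays, all with upper title numbers, whereas all C450 ins and E10 del arrays have lower ones.

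Numbers in the titles fell into a lower range of 1 to 30 and an upper one of 41 to 64, which the labels do not call batches. The C450 ins, E10 del and D842V arrays all lay in the lower range and the E7 del arrays in the upper, so each range held a different version of the comparison. V544ins and E10 del.v2 had 3 lower-range and 6 upper-range arrays each. With the range as a block, 124 genes were called and all 55 were among them. In the lower range alone, with V544ins and D842V on the one side and no E7 del on the other, 52 genes were called, 17 of the 55 among them. In the upper range alone, where the comparison was of E7 del and E10 del.v2 with V544ins, 0 genes were called by limma and 899 had an unadjusted p under 0.05. All 24 named genes kept their sign in both ranges, but they were chosen on all of these arrays, so that count is no test of them. Within titles 1 to 30 and within titles 41 to 64, in that order, Klk6 differed by -1.62 and -3.00, Mag by -1.0 and -2.05, Trpc4 by -1.38 and -1.99, and Susd5 by 2.10 and 1.51.

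Genotypes were the units that the regions compare, and there were 4 of them against 2. Taking the 6 genotype means as 6 samples, limma called 0 genes, with 409 at an unadjusted p under 0.05. With genotype as a random block it called 0, with 722. The 55 calls therefore measure differences against the spread between arrays of a genotype, not against the spread between genotypes of a region. The count also rested on single groups and arrays. It was 0 with D842V left out of the contrast, 5 with E10 del.v2 left out, 23 with E7 del left out and 82 with V544ins left out. Without D842V, 54 of the 55 kept their sign at a median of 0.659 of their size. The 55 were called with the remaining arrays too, so that count is no test of them. Leaving out 1 array at a time gave 5 calls without D842V replicate 5 or E7 del replicate 2, 7 and 8 without D842V replicates 3 and 4, 21 without D842V replicate 2, 25 without V544ins replicate 4, 30 without E7 del replicate 3, and 83, 85, 101, 102 and 108 without D842V replicate 1, V544ins replicate 9, E7 del replicate 1, V544ins replicate 1 and V544ins replicate 7. No higher gene was called without D842V replicate 3, 4 or 5 or without E7 del replicate 2, so the 17 higher calls each depended on single arrays. Over the 36 such fits, Cntn6 lost its call in 26, Abcg1 in 21, Ddx43 and Mog in 19 each, and Ucn3, Cbln2 and Trpc4 in none. With V544ins replicates 4 and 5 both left out, 10 genes were called and all were lower: Ucn3, Eya2, Trpc4, Insc, Hdac5, Cbln2, Plekha1, Gm26519, Dusp10 and Ppfibp2. Of these, Ucn3, Eya2 and Gm26519 had no extracellular array above the table median. The filter was set once on all arrays, so their kept calls, here and with single arrays left out, are no independent support. Klk6, Mag, Mog and Susd5 were then at -1.86, -1.39, -1.30 and 1.96, with adjusted p of 0.0627, 0.118, 0.139 and 0.0941 (limma).

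**Figure D5:**
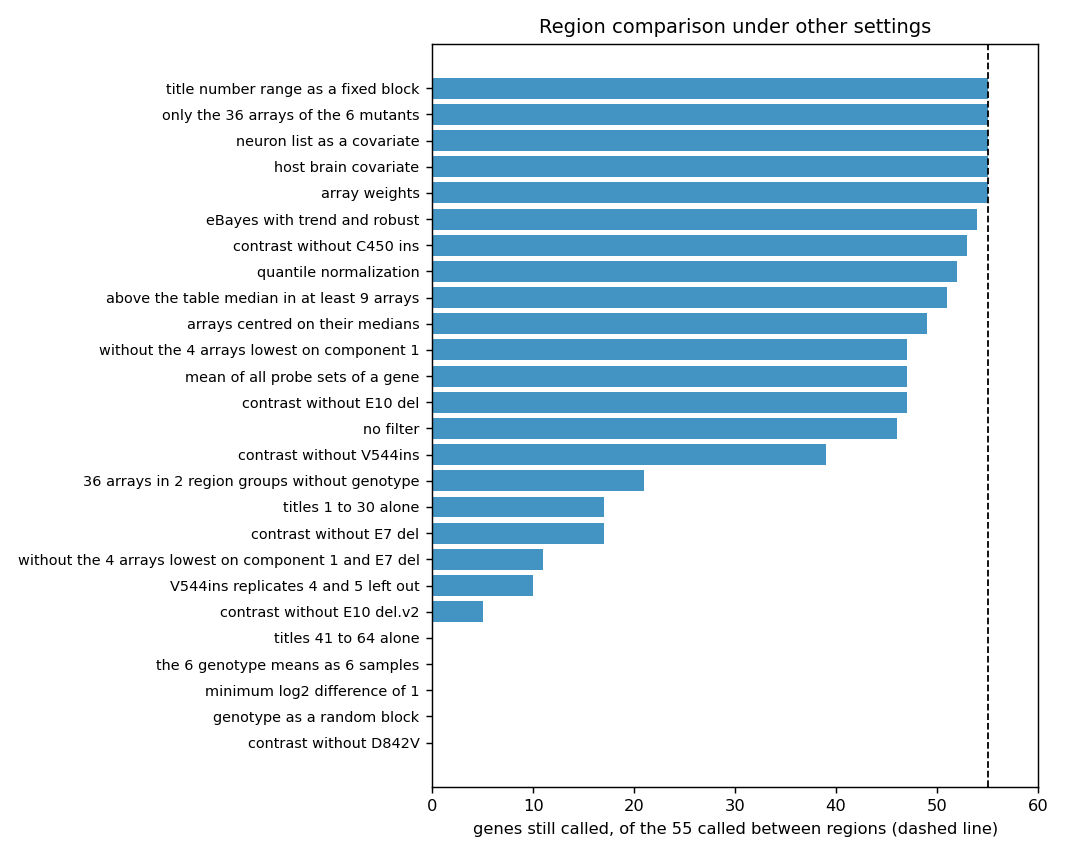
Number of the 55 genes called between regions that were still called when 1 setting was changed, as bars, with a dashed line at 55. The bars reach 55 with the title range as a block and 39 without V544ins, and end at 0 without D842V, within titles 41 to 64, with genotype as the unit and with a minimum log2 difference of 1. In that last setting limma tested whether a difference exceeded 1, which is not a cut on its size.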

How the data were processed

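Total RNA of 45 arrays was measured, extracted with Trizol, with 100 ng labelled by a 3' in vitro transcription kit, per the labels' protocols. The authors deposited log2 values that they had made by RMA, per the submitters' processing notes; no RMA version is given in the sources used here. The table held 45141 probe sets. Its values lay between 1.46 and 13.82, and the medians of single arrays between 4.66 and 4.85. Of the probe sets, 28898 probe sets had 1 gene symbol, 551 several and 15692 none. No scanner values, scan dates or depths entered, so precision is limited by the number of arrays.

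Of 17097 genes, the probe set of highest mean stood for each, and a gene was tested if 3 or more arrays exceeded 4.79, the median of the table, which left 11809. limma 3.58.1 in R 4.3.3 fitted the 8 genotype groups of all 45 arrays without covariates, moderated the variances and adjusted p by Benjamini-Hochberg over 11809 genes, with a threshold of 0.05. The fit was checked on simulated data with independent noise and no spread between the genotypes of a side. That check therefore says nothing about such spread. The 24 named genes of the region comparison are the 12 called genes of largest difference in each direction. For the other contrasts they are up to 5 called genes in each direction, for the F test the 8 of smallest p, for each list up to 4 members of smallest p, and always Pdgfra, the other PDGF ligands and receptors, Egfr and sex-linked genes; predicted genes were passed over. Pdgfa and Ddx3y were not analysed here. Members and lists were chosen with earlier results of these data known. Replicate numbers follow accession order and pair nothing. Alternatives covered the title range, left-out genotypes and arrays, genotype as the unit, filters, probe set summaries, centring, weights and covariates.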

Additional observations from a re-analysis of the deposited data

Results flagged for a closer look

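Among 150 sets of 4 to 10 arrays of a genotype tested for a single array far from the rest, 13 stood out, and chance flags about 1 in 20 groups (5%). E10 del.v2 replicate 2, one of the 4 arrays lowest on the first principal component, was low for Rlbp1 (5.31, others 7.89 to 8.87), Meox1 (4.84, others 7.79 to 8.68), Lmcd1 (5.20, others 7.14 to 8.74) and the Oligodendrocyte progenitors list mean (6.89, others 9.88 to 10.94).

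D842V replicate 5 was low for Rlbp1 (3.35, others 4.33 to 4.69) and for the Neurons list mean (5.50, others 9.30 to 10.38). D842V replicate 1 was low for the Oligodendrocyte progenitors mean (8.46, others 9.44 to 9.80). C450 ins replicate 1 was high for Tmem42 (8.07, others 7.35 to 7.47) and low for the Oligodendrocyte progenitors mean (9.21, others 10.15 to 10.47).

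The Ependyma and choroid plexus list mean was high in 1 array each of C450 ins (replicate 3, 7.02, others 3.85 to 4.54), E10 del (replicate 2, 7.36, others 3.89 to 4.82) and E10 del.v2 (replicate 4, 6.73, others 3.77 to 4.74). The Immediate early genes mean was high in E10 del.v2 replicate 1 (8.56, others 6.56 to 7.11).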

How the results depend on the processing

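No paired analysis was possible because the labels give no shared replicate numbers; the title range was run as a block instead. The region count of 55 moved to 124 with that block, 0 within titles 41 to 64, 165 with the 36 arrays alone, 142 without C450 ins, 23 without E7 del, 113 without E10 del, 5 without E10 del.v2, 0 without D842V, 0 with 6 genotype means, 0 with a random genotype block, 4706 with array weights, 1100 with host brain genes as a covariate, 0 with a minimum difference of 1, and 198 without the 4 arrays that scored lowest on the first component. Settings chosen after seeing the data gave 236 with a neuron covariate, 19 without those 4 arrays and E7 del, and 10 without V544ins replicates 4 and 5. Leaving out 1 array gave 5 to 108 calls. The host brain covariate averaged the signals of the Neurons list and the Myelinating oligodendrocytes list. The latter holds the called genes Mog, Mag, Trf and Ppp1r14a, so this covariate contains part of the difference under test. Counts made with it, here and for the other contrasts, therefore do not show what remains once separate host tissue is accounted for. With a minimum difference of 1, limma tested whether each log2 difference exceeded 1, given its spread. That setting was not a cut on size, since 29 of the 55 differed at least 2-fold.

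Against V544ins the count of 0 became 1 with 36 arrays and 4636 with weights, and stayed 0 to 0 over single arrays. Against D842V, 82 became 130 with the block, 266 with 36 arrays, 4649 with weights, 916 with the host covariate, 253 without the 4 arrays, 488 with the neuron covariate and 190 without V544ins replicates 4 and 5, and 16 to 153 over single arrays. The F test's 10 became 3 with the block, 95 with 36 arrays, 27 unfiltered, 5 centred, 9835 with weights, 6 with the host covariate and 3 without the 4 arrays, and 0 to 76 over single arrays. D842V minus V544ins, at 10, became 4 with the 9-array filter, 4718 with weights, 34 with the neuron covariate and 107 without V544ins replicates 4 and 5, and 5 to 12 over single arrays. The cause was not tested.

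Of 1487 alternative values of the 24 named genes, 0 reversed. The 24 were chosen as called genes on these same arrays, so that count is no test of them. Uncalled genes near 0 did reverse. Egfr was -0.028 within titles 41 to 64, -0.10 without C450 ins, -0.058 without the 4 arrays, -0.042 without V544ins replicates 4 and 5, and -0.020 to 0.29 over single arrays. Eif2s3y was -0.0061 with the block, -0.017, -0.46, -0.15 and -0.34 without C450 ins, E7 del, E10 del.v2 and V544ins, -0.40 with weights, -0.42 with the host covariate, and -0.21 to 0.20 over single arrays. Kdm5d was -0.19, -0.012 and -0.25 without E7 del, E10 del.v2 and V544ins, -0.18 with weights, -0.27 with the host covariate, and -0.076 to 0.27 over single arrays. Pdgfd was -0.014 within titles 1 to 30, -0.086 and -0.059 without E10 del and V544ins, -0.0040 centred, -0.15 with weights, -0.0022 with the host covariate, -0.067 without V544ins replicates 4 and 5, and -0.13 to 0.14 over single arrays. Pdgfb was -0.12 without the 4 arrays and E7 del, and Xist 0.041 without E7 del. The myelin and interferon list medians kept their sign, from -1.17 to -0.44 and from -1.55 to -0.36. Those of neurons (-0.47 to 0.92), immediate early genes (-1.0 to 0.10), ependyma and choroid plexus (-1.16 to 0.74) and oligodendrocyte progenitors (-0.16 to 0.61) changed sign.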
